A study of Sus scrofa with 2 samples.

Results

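Transforming growth factor beta (TGF-beta) and bone morphogenetic protein (BMP) signalling was followed through 10 genes of the pig heart: 4 ligands (TGFB1, TGFB2, TGFB3, BMP6), 3 signalling receptors (TGFBR1, TGFBR2, BMPR2), 2 co-receptors (TGFBR3, ENG) and the transcription factor SMAD3. They were taken by gene symbol from the 31908 genes of the count matrices, and all 10 were present in both. The matrices come from single-nucleus RNA sequencing of frozen myocardium from the free wall of the left ventricle of Bama pigs. Both groups had eaten a high-fat-high-sucrose diet for 12 months. The WT group is wild-type. The TG group is triple-transgenic and carries PNPLA3 with a variant linked to fatty liver disease, a dominant-negative GIPR (the receptor of the gut hormone GIP) and human IAPP, the islet amyloid peptide. Neither group ate a control diet, the promoters of the transgenes and the number of animals behind a library are not given in the sources used here, and each genotype has 1 library.

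TGF-beta ligands are secreted in a latent form bound to matrix proteins, and once freed they bind TGFBR2, which then activates TGFBR1. The active receptor phosphorylates SMAD2 and SMAD3, which enter the nucleus and switch on matrix genes, and in the heart this pathway is known for fibroblast activation and scar formation. BMP ligands use BMPR2 and other type I receptors to activate SMAD1, SMAD5 and SMAD9, a branch that is well known for keeping endothelium quiescent.

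The WT library held 18251 barcodes with 127126477 unique molecular identifiers (UMIs, counted RNA molecules), and the TG library 15000 with 89324966, and 81 barcode sequences occurred in both. Filters left 16725 and 14939 nuclei with medians of 5442 and 3937 UMIs. Clusters were given class names from fixed marker genes, and each name means likeness in transcripts ("cardiomyocyte-like") even where the suffix is left out. Mixed clusters, which carried markers of unlike classes, were left out (9.19% of WT and 14.2% of TG nuclei). The 9 classes with at least 100 nuclei in both libraries were compared, from 6765 WT and 5284 TG cardiomyocyte nuclei down to 167 and 138 Schwann or neural nuclei, and vascular endothelial nuclei numbered 1283 and 2864. Libraries stood apart within classes: lymphatic endothelial nuclei, for example, were almost all in cluster 12 in WT (893 nuclei) and cluster 21 in TG (477). Cardiomyocyte markers summed to a higher level in TG in all 8 other classes, from 1.12 times WT in smooth muscle to 3.15 times in lymphatic endothelium, and their part in the values below was not tested.

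For each class and library, a gene's UMIs were added up over the nuclei and scaled to 1000000 nuclear-encoded UMIs (CPM) with an exact 95% Poisson interval. A gene was called higher or lower in TG when it had at least 20 UMIs over both libraries, a ratio of at least 1.5 in either direction, and a 95% interval of the ratio that left out 1. All intervals cover counting error only. No p-value is given, since with 1 library per genotype the genotype, the animal and the library cannot be told apart. Levels were compared between classes and libraries for 1 gene at a time and never between genes.

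Each of the 10 genes had its highest level in the same class in WT and TG. The ligands were spread over 4 classes: T or NK lymphocytes led for TGFB1, fibroblasts for TGFB2, smooth muscle for TGFB3 and vascular endothelium for BMP6. Among receptors and co-receptors, macrophages led for TGFBR1, Schwann or neural nuclei for TGFBR2, fibroblasts for TGFBR3 and vascular endothelium for both ENG and BMPR2. SMAD3 was highest in fibroblasts. Of 90 pairs of gene and class, 88 were measured, and 18 were higher in TG (20.5%), 17 lower (19.3%) and 53 neither. Over all genes, 16.2% of the measured pairs were higher and 10.5% lower. BMP6 and ENG accounted for 15 of the 18 higher pairs, with 8 and 7 of the 9 classes. How many other genes were higher in as many classes was not counted. With a library-wide RNA profile subtracted from all classes but cardiomyocytes, 22 of the 35 called pairs kept their call. Of the 17 lower pairs, 3 each belonged to TGFB2, TGFBR2 and TGFBR3, and 2 each to TGFB1, TGFB3, TGFBR1 and SMAD3.

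**Figure D1:**
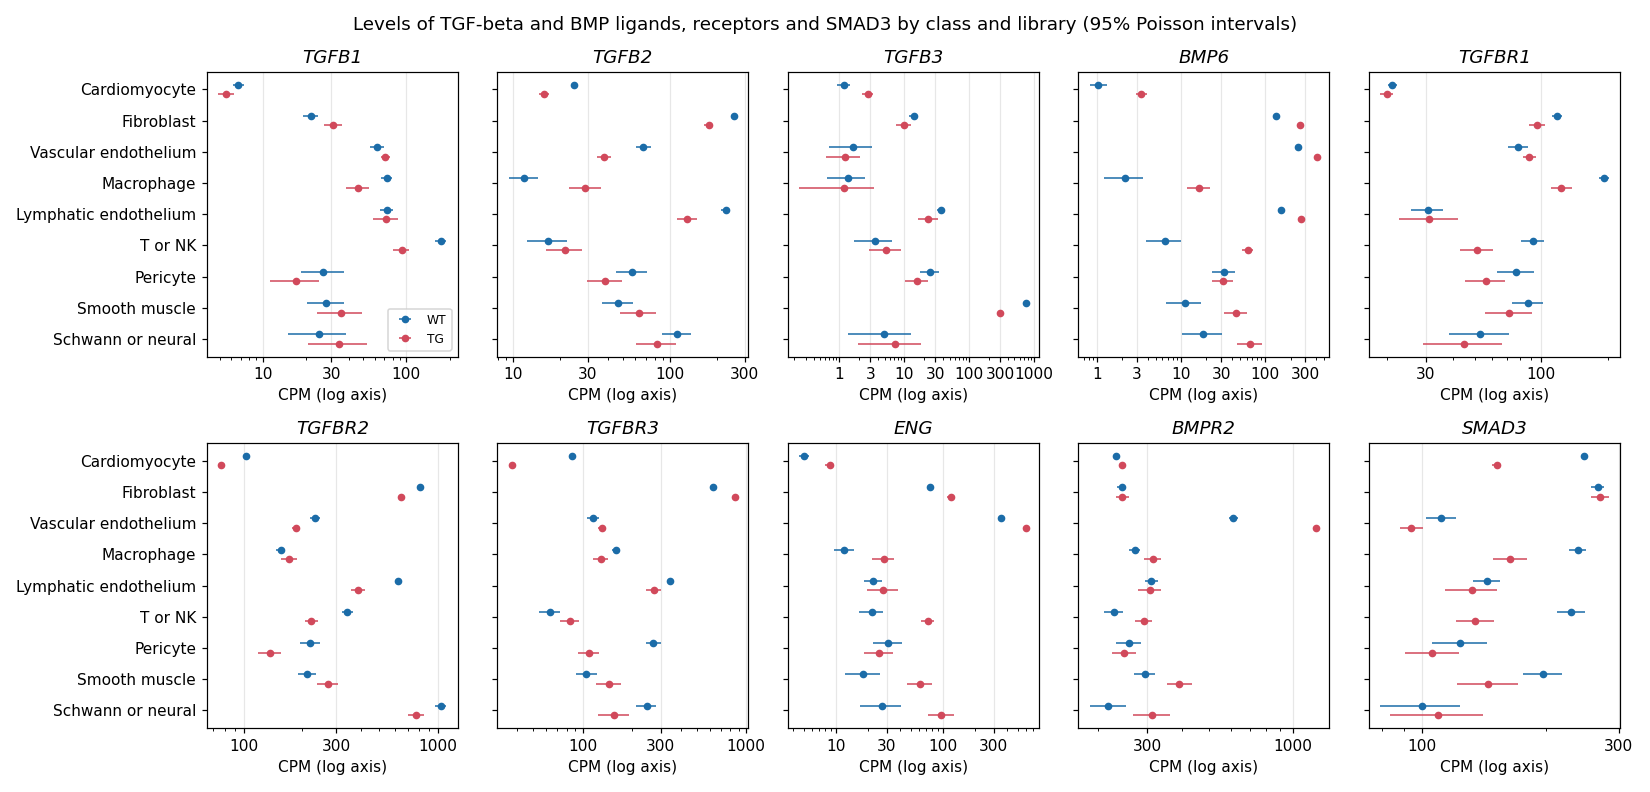
Level of each gene (x axis, CPM, log scale) in the 9 classes (y axis), blue for WT and red for TG, with bars for 95% Poisson intervals. TGFB3 stands out in smooth muscle (750 CPM in WT, 304 in TG) and BMPR2 in vascular endothelium (611 and 1206), while the other BMPR2 levels lie between 218 and 391.

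TGFB1, the isoform best known from immune cells and fibrosis, lies on chromosome 6 (49332169 to 49348642, Sscrofa11.1). Its level in T or NK lymphocytes was 174 CPM in WT (158 to 190) and 92.4 in TG (81.3 to 105). In WT this was 2.38 times the next class, lymphatic endothelium at 72.8 CPM, whereas in TG the interval met that of lymphatic endothelium (71.5). Lymphatic endothelium, macrophages (72.7 CPM) and vascular endothelium (62.0) did not differ beyond their intervals in WT. Cardiomyocytes had the lowest level, 6.71 CPM in WT and 5.53 in TG. TGFB1 was lower in TG in T or NK lymphocytes (0.533 times WT, 0.455 to 0.622) and in macrophages (72.7 and 45.8 CPM, 0.630 times, 0.512 to 0.770). Fibroblasts went the other way (21.5 and 30.9 CPM, 1.43 times, 1.18 to 1.74) but fell short of the fold required. Fibroblast clusters 20 (2.33 times, 1.27 to 4.23) and 25 (2.43 times, 1.32 to 4.36) passed as higher in TG. Cardiomyocyte cluster 1 passed as higher too, with 8 UMIs in TG.

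The lymphocyte difference in TGFB1 moved with the mix of clusters. Cluster 13, led by CD226 and GNLY, held 232 of the WT and 511 of the TG nuclei of the class, with 103 and 80.9 CPM. Cluster 28, led by SKAP1, SCML4 and LEF1, held 280 and 45 nuclei, with 279 and 363 CPM. Cluster 37 held 113 WT nuclei at 230 CPM and 14 TG nuclei. Neither cluster 13 nor cluster 28 passed the rule for TGFB1, and without cluster 13 the class had a log2 ratio of 0.13 in place of -0.91. The 16 T or NK markers summed to 7829 CPM in WT and 3664 in TG over the class, with CD3G at 0 in TG, and their part in the lower TGFB1, TGFBR1, TGFBR2 and SMAD3 values of lymphocytes was not tested. In macrophages, whose own 13 markers summed to 8952 and 8726 CPM, cluster 8 had 88.8 CPM in WT and 80.8 in TG, which did not pass, and cluster 14 had 46.4 and 19.2 (0.413 times, 0.264 to 0.625). Cardiomyocyte markers summed to 13901 CPM in WT and 23319 in TG over the macrophage class. They were 2769 and 8884 CPM in cluster 8 and 32156 and 34335 in cluster 14. Their part in the lower TGFB1 and TGFBR1 values of macrophages was not tested.

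TGFB2, the isoform that depends most on the co-receptor TGFBR3 for binding, lies on chromosome 10 (8306136 to 8435307). Fibroblasts had 259 CPM in WT (250 to 268) and 177 in TG (166 to 188), and lymphatic endothelium followed with 227 (213 to 241) and 130 (111 to 150). Schwann or neural nuclei came next in both libraries, with 111 and 82.5 CPM. TGFB2 was lower in TG in vascular endothelium (67.7 and 37.8 CPM, 0.559 times, 0.481 to 0.649), in lymphatic endothelium (0.571 times, 0.485 to 0.669) and in cardiomyocytes (24.4 and 15.6 CPM, 0.641 times, 0.587 to 0.699). The fibroblast ratio of 0.684 (0.637 to 0.734) fell short of the fold required. Macrophages went the other way, with 11.7 CPM in WT and 28.7 in TG (2.46 times, 1.78 to 3.40). That difference lay in macrophage cluster 8 (4.32 and 35.9 CPM), and cluster 14 had 23.7 and 23.3. The 14 fibroblast markers moved with it, from 679 CPM in WT to 1040 in TG over the class and from 816 to 1301 in cluster 8, all 14 detected in each. After a library-wide RNA profile was subtracted, macrophage TGFB2 read 0 in WT and 9.40 CPM in TG. This took off 37.0% of the WT and 66.7% of the TG macrophage UMIs, with negative values set to 0. The part of fibroblast RNA was not tested otherwise.

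TGFB3, a ligand with roles in palate and vessel wall development, lies on chromosome 7 (99133873 to 99162239). Smooth muscle had 750 CPM in WT (710 to 793) and 304 in TG (270 to 341), and the next class in both was lymphatic endothelium (37.1 and 23.4), which WT smooth muscle exceeded 20.3 times. After each nucleus was thinned to 1000 UMIs, 42.0% of smooth muscle nuclei in WT and 19.7% in TG held a TGFB3 UMI, against 0.0448% and 0.322% of cardiomyocyte nuclei. Unthinned, the smooth muscle shares were 62.5% and 38.9% at median depths of 4241 and 2923 UMIs, and the cardiomyocyte shares 1.14% and 2.33% at 10045 and 7622.5. Thinning left out 9 smooth muscle and 63 cardiomyocyte nuclei, all WT. Smooth muscle held 72.1% of the WT and 51.1% of the TG UMIs of TGFB3 in the 9 classes.

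TGFB3 was lower in TG smooth muscle (0.405 times, 0.355 to 0.460), and this rested on 1 cluster. Cluster 32, with ITGA8, ACTG2, MYH11 and TNC among its leading genes, held 216 nuclei of WT but 10 of TG and had 934 CPM of TGFB3 in WT (880 to 991). TGFB3 was itself among the leading genes of that cluster. Cluster 29 had 88 and 229 nuclei, with 342 CPM (WT) and 291 (TG), a ratio of 0.852 (0.702 to 1.03). Without cluster 32 the log2 ratio of the class was -0.23 in place of -1.30. TGFB3 was lower in lymphatic endothelium too (0.631 times, 0.421 to 0.919) and higher in cardiomyocytes, at levels of 1.17 and 2.72 CPM (2.34 times, 1.76 to 3.11). It was below 20 UMIs in macrophages and in Schwann or neural nuclei.

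**Figure D2:**
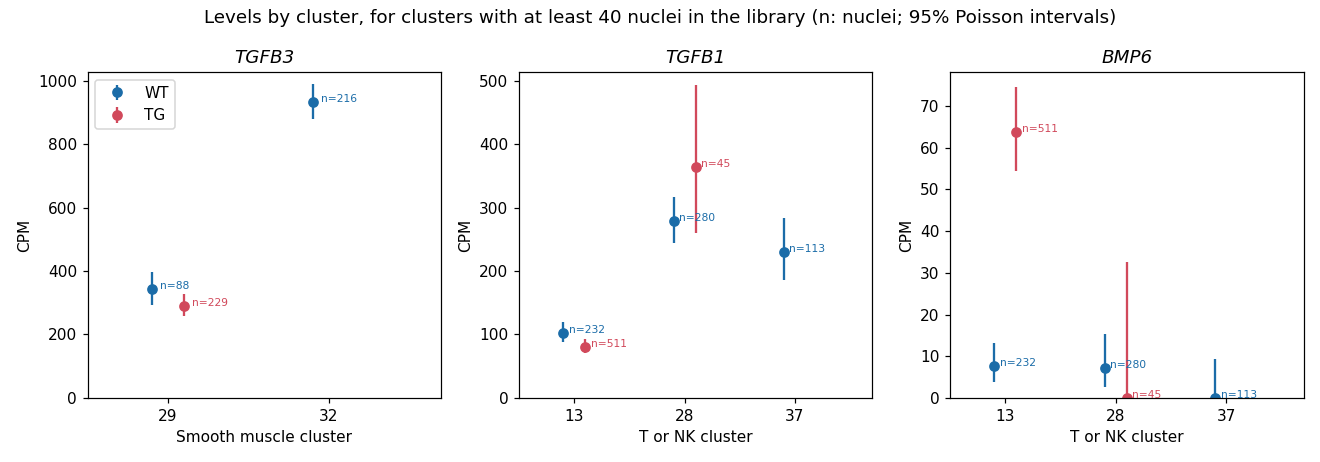
Levels (y axis, CPM) of TGFB3 in the smooth muscle clusters and of TGFB1 and BMP6 in the T or NK clusters (x axis), with 95% Poisson intervals and the number of nuclei, for clusters with at least 40 nuclei in a library. TGFB3 reads 342 (WT) and 291 (TG) in cluster 29 and 934 in cluster 32, and BMP6 in TG lymphocytes sits in cluster 13.

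BMP6, a BMP made by endothelium and best known for its control of hepcidin and iron, lies on chromosome 7 (5058817 to 5208868). It was highest in vascular endothelium, at 248 CPM (WT, 234 to 262) and 410 CPM (TG, 398 to 423), 1.65 times (1.55 to 1.76). Lymphatic endothelium (153 and 269 CPM) and fibroblasts (135 and 259) followed and did not differ from each other beyond their intervals in either library. Both were higher in TG, by 1.76 times (1.55 to 2.00) and 1.92 times (1.79 to 2.06). Thinned to 1000 UMIs, 16.3% of WT and 26.9% of TG vascular endothelial nuclei held a BMP6 UMI, against 0.119% and 0.473% of cardiomyocyte nuclei. The unthinned shares were 29.5% and 44.7%, against 1.14% and 2.76%, at endothelial median depths of 3159 and 2912 UMIs, and thinning left out 16 WT endothelial nuclei.

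Outside these 3 classes BMP6 was low, and it was higher in TG in 5 of the other 6. T or NK lymphocytes had 6.39 CPM in WT and 61.7 in TG (9.67 times, 5.93 to 16.7), and macrophages 2.15 and 16.3 (7.60 times, 4.18 to 14.5). Smooth muscle had 19 UMIs in WT and 43 in TG (45.4 CPM), 4.09 times per nuclear-encoded UMI (2.34 to 7.44). Schwann or neural nuclei had 18.4 and 66.3 CPM, and cardiomyocytes 1.04 and 3.39. Pericytes had 32.2 and 31.4 CPM and did not pass. In lymphocytes the BMP6 UMIs of TG sat in cluster 13 (7.60 CPM in WT, 63.8 in TG), and cluster 28 had 0 UMIs among its 45 TG nuclei, which allows up to 32.7 CPM. The 14 vascular endothelial markers, none of which is among the 10 genes, were all detected in cluster 13 and summed to 547 CPM in WT and 963 in TG. In cluster 28 they summed to 205 and 177, with CDH5, KDR, TIE1, ESAM and CLDN5 at 0 in TG.

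BMP6 is high in endothelium and in fibroblasts, and markers of both were followed in the other classes. Endothelial markers summed to 253 CPM in WT and 1201 in TG in Schwann or neural nuclei, to 325 and 777 in smooth muscle, to 507 and 460 in macrophages and to 102 and 115 in cardiomyocytes. The 14 fibroblast markers summed to 664 and 1783 CPM in T or NK lymphocytes (869 and 1829 in cluster 13), 679 and 1040 in macrophages, 103 and 266 in cardiomyocytes, 2321 and 2671 in smooth muscle and 4036 and 4367 in Schwann or neural nuclei. They were thus higher in TG in all 5 classes outside endothelium and fibroblasts where BMP6 was called, and the endothelial markers in 4 of them. All 14 of each list were detected in each of these classes in both libraries.

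A library-wide profile was also subtracted from each class except cardiomyocytes, by an amount set from cardiomyocyte markers, and negative values were set to 0. Nothing was subtracted from cardiomyocytes, so their values and calls could not change in this setting. The amount was 37.0% of WT and 66.7% of TG UMIs in macrophages and 42.4% and 53.0% in smooth muscle. It was 33.7% and 61.0% in T or NK lymphocytes, 40.6% and 52.0% in Schwann or neural nuclei, and the limit of 90% in TG pericytes. A level of 0 after this step does not show absence, and values changed unevenly. BMP6 then read 0 in both libraries in macrophages and smooth muscle, 0 in WT and 10.7 CPM in TG in T or NK lymphocytes, and 6.06 and 35.9 CPM in Schwann or neural nuclei. ENG read 0 in both libraries in macrophages, 5.97 and 5.56 CPM in smooth muscle, 15.1 and 12.2 in lymphocytes and 21.9 and 81.8 in Schwann or neural nuclei. Beyond this subtraction, the part of endothelial and fibroblast RNA in the BMP6 and ENG values of other classes was not tested.

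Within vascular endothelium BMP6 went in opposite directions by cluster. Cluster 3, led by ADGRF5 and ADGRL4, had 249 CPM in WT and 581 in TG (2.33 times, 2.09 to 2.60), and cluster 18 had 407 and 795 (1.96 times, 1.59 to 2.43). Cluster 22 had GJA5 and SEMA3G, genes known from arterial endothelium, among its leading genes, and there BMP6 was 574 CPM in WT and 104 in TG (0.181 times, 0.151 to 0.217). Cluster 10 had 126 and 71.6 CPM (0.568 times, 0.469 to 0.685). In the order 3, 18, 22, 10, these clusters contained 549, 75, 144 and 515 nuclei of WT, and 1455, 468, 334 and 607 of TG. Vascular endothelial markers in cluster 22 summed to 5515 CPM in WT and 6618 in TG.

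ENG, endoglin, an endothelial co-receptor for BMP9 and BMP10 that also binds TGF-beta, lies on chromosome 1 (268309379 to 268343861). The vascular endothelial level was 351 CPM (334 to 367) for WT against 601 (586 to 616) for TG, 1.71 times (1.62 to 1.81), and was 4.61 and 5.09 times the next class, fibroblasts (76.0 and 118 CPM). The fibroblast ratio was 1.55 (1.41 to 1.72). ENG was higher in TG also in cardiomyocytes (5.06 and 8.75 CPM), macrophages (11.9 in WT and 2.34 times that in TG), T or NK lymphocytes (21.6 and 72.2), smooth muscle (18.1 and 61.2) and Schwann or neural nuclei (27.0 and 96.8). These 5 ratios ran from 1.73 to 3.58, and lymphatic endothelium (22.3 and 27.6 CPM) and pericytes (30.8 and 25.4) did not pass. In lymphocytes the ENG difference lay in cluster 13 (22.8 and 75.7 CPM), as for BMP6, and without that cluster the log2 ratio was -0.31.

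Within vascular endothelium ENG was highest in clusters 18 and 3, and neither passed the rule. Cluster 18 had 942 CPM in WT and 980 in TG (1.04 times, 0.905 to 1.20), and cluster 3 had 578 and 731 (1.26 times, 1.17 to 1.36). Cluster 10 had 219 and 244 and did not pass either. Cluster 22 passed, with 126 CPM in WT and 442 in TG (3.52 times, 2.85 to 4.40), where BMP6 was lower. Clusters 3 and 18 made up 1455 and 468 of the 2864 TG nuclei of the class, against 549 and 75 of the 1283 WT nuclei.

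BMPR2, the type II receptor for BMPs whose loss causes heritable pulmonary arterial hypertension, lies on chromosome 15 (105971577 to 106132496). In vascular endothelium it stood at 611 CPM (WT, 589 to 633) and 1206 CPM (TG, 1185 to 1228), or 1.98 times (1.90 to 2.06). In WT the other 8 classes lay between 218 and 310 CPM, and each differed from its neighbour in order by less than the intervals. In TG they lay between 243 and 391. The interval of smooth muscle (353 to 433) overlapped that of Schwann or neural nuclei (267 to 362) and lay above the rest of these classes. Vascular endothelium was the only class called for BMPR2. Its interval lay above 1 in all 4 endothelial clusters, with 658 and 1122 CPM in cluster 3 (1.71 times), 1286 and 2517 in cluster 18 (1.96 times), 744 and 1033 in cluster 22 (1.39 times) and 470 and 677 in cluster 10 (1.44 times). Clusters 22 and 10 fell short of the fold required.

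**Figure D3:**
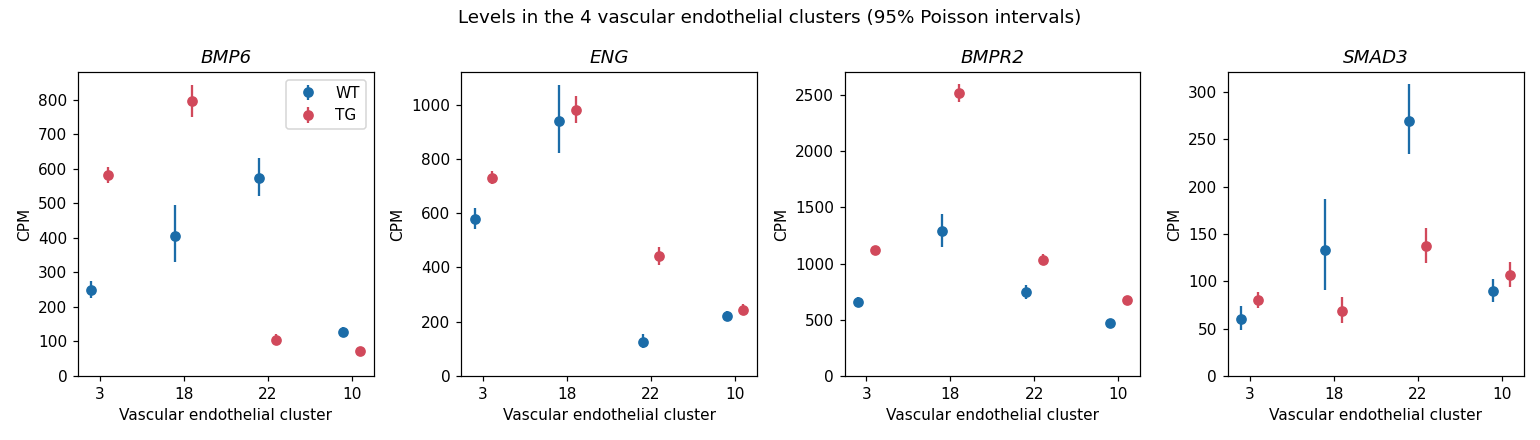
Levels (y axis, CPM) of BMP6, ENG, BMPR2 and SMAD3 in the 4 vascular endothelial clusters (x axis), blue for WT and red for TG, with 95% Poisson intervals. BMPR2 is higher in TG in each cluster, whereas BMP6 is higher in TG in clusters 3 and 18 and lower in clusters 22 (574 and 104 CPM) and 10. SMAD3 is lower in TG in clusters 22 (269 and 137 CPM) and 18, and clusters 3 and 10 did not pass.

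TGFBR1, the type I TGF-beta receptor (ALK5), lies on chromosome 1 (240842735 to 240918267). Macrophages had 192 CPM in WT (182 to 202) and 124 in TG (110 to 138), ahead of fibroblasts (118 and 95.8), and cardiomyocytes were lowest (21.2 and 19.9). TGFBR1 was lower in TG in macrophages (0.644 times, 0.569 to 0.728) and in T or NK lymphocytes (91.6 and 51.3 CPM, 0.560 times, 0.452 to 0.692). Neither macrophage cluster passed on its own, with 247 and 197 CPM in cluster 8 and 100 and 67.1 in cluster 14. In lymphocytes neither cluster 13 (60.2 and 48.4 CPM) nor cluster 28 (137 and 115) passed on its own. The other 7 classes did not pass and had ratios between 0.730 and 1.12.

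TGFBR2, the type II receptor that binds the ligand first, lies on chromosome 13 (16784370 to 16875828). Schwann or neural nuclei had 1031 CPM in WT (963 to 1104) and 773 in TG (701 to 849), followed by fibroblasts (812 and 643) and lymphatic endothelium (624 and 387). These 3 classes kept that order in both libraries, with no overlap of neighbouring intervals. Cardiomyocytes were lowest, at 103 and 76.5 CPM. TGFBR2 was lower in TG in lymphatic endothelium (0.620 times, 0.565 to 0.680), in pericytes (220 and 136 CPM, 0.621 times, 0.520 to 0.740) and in T or NK lymphocytes (342 and 223 CPM, 0.652 times, 0.588 to 0.723). In lymphocytes neither cluster 13 (293 and 210 CPM) nor cluster 28 (479 and 487) passed on its own.

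TGFBR3, betaglycan, a co-receptor that presents TGF-beta ligands to the signalling receptors, lies on chromosome 4 (125109939 to 125310788). Fibroblasts had 623 CPM (WT, 609 to 637) and 852 CPM (TG, 828 to 876), and this 1.37 times difference did not pass, and lymphatic endothelium followed (344 and 272). Cardiomyocytes had 85.8 CPM (WT, 83.7 to 87.9) and 37.1 CPM (TG, 35.4 to 38.9), 0.433 times (0.410 to 0.456). Among cardiomyocyte clusters with at least 40 nuclei in a library, 5 WT clusters had 84.1 to 97.1 CPM, and 4 TG clusters had 36.4 to 41.2. Most of these clusters came almost wholly from 1 library and are not replicates. How many other genes separate by cluster in this way was not counted. Pericytes (271 and 109 CPM, 0.403 times, 0.336 to 0.483) and Schwann or neural nuclei (246 and 156 CPM, 0.634 times, 0.487 to 0.820) were lower as well. The 9 Schwann or neural markers summed to 19488 CPM in WT and 11407 in TG in their own class. The 12 pericyte markers summed to 7930 CPM in WT and 3073 in TG in the pericyte class, and cardiomyocyte markers to 19623 and 33624, and the part of these marker differences in the TGFBR3 values of both classes and in pericyte TGFBR2 was not tested.

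SMAD3, which carries the TGF-beta signal to the nucleus, lies on chromosome 1 (164998457 to 165124455). Fibroblasts had 267 CPM in WT (258 to 276) and 270 in TG (257 to 283). Cardiomyocytes had 247 CPM (WT, 244 to 251) and 151 CPM (TG, 148 to 155), 0.613 times (0.596 to 0.630), and held 71.0% and 64.5% of the SMAD3 UMIs in the 9 classes. The 5 WT cardiomyocyte clusters had 241 to 254 CPM and the 4 TG clusters 133 to 163, and these clusters are not replicates. Clusters 1 and 9 held at least 40 nuclei of both libraries, and there SMAD3 was 246 (WT) and 133 (TG) in cluster 1 and 249 and 163 in cluster 9. T or NK lymphocytes were lower too (230 and 134 CPM, 0.585 times, 0.513 to 0.667), in cluster 13 (227 and 138) and in cluster 28 (232 and 70.9, with 8 UMIs in TG). Vascular endothelium did not pass as a class (0.848 times), but its clusters differed. SMAD3 was lower there in cluster 22 (269 and 137 CPM, 0.509 times, 0.419 to 0.619) and cluster 18 (133 and 68.98, 0.520 times). Clusters 3 (1.34 times, 1.06 to 1.70) and 10 (1.18 times) did not pass. Fibroblast cluster 20 was lower (213 and 125 CPM, 0.588 times), and fibroblast cluster 25 (236 and 261) did not pass. When TMM factors replaced total counts as the scaling, SMAD3 was highest in cardiomyocytes in WT (368 CPM) and in fibroblasts in TG (253).

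**Figure D4:**
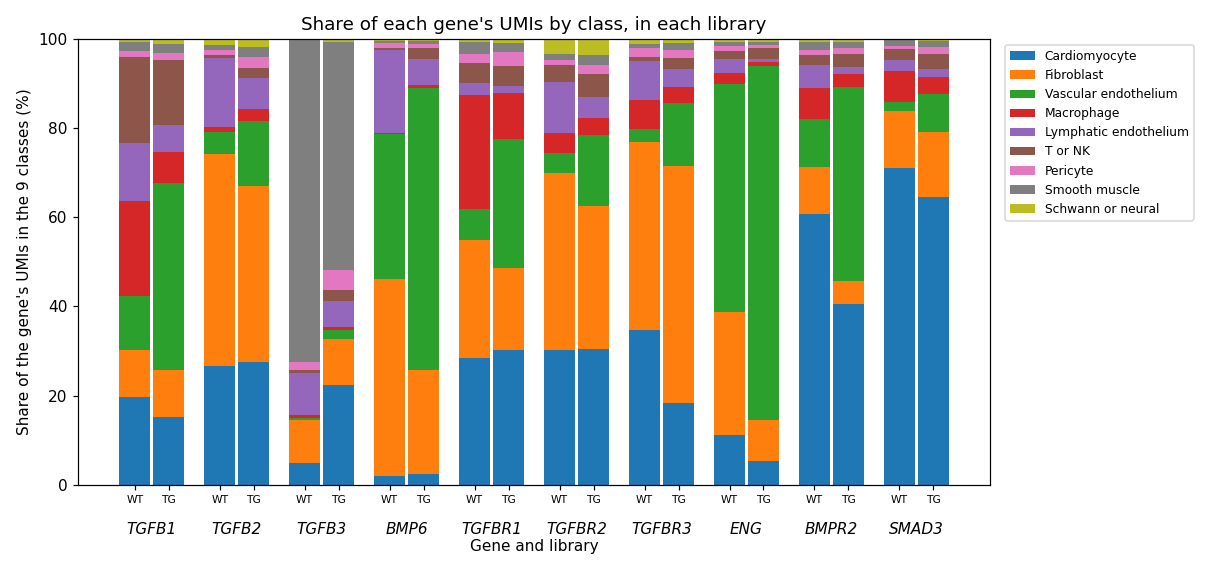
Share of each gene's UMIs (y axis, %) that fell in each of the 9 classes (colours), with 1 bar for each gene and library (x axis). Vascular endothelium held 51.0% of ENG UMIs in WT and 79.5% in TG, and 10.7% and 43.5% of BMPR2 UMIs, while smooth muscle held 72.1% and 51.1% of those of TGFB3.

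Over all nuclei of a library, levels also followed the class mix, with more vascular endothelial and fewer fibroblast and macrophage nuclei in TG. ENG was 34.5 CPM in WT and 111 in TG over the whole library, 3.21 times, and 1.72 times when the TG class levels were weighted by the WT mix of classes. BMP6 was 36.5 and 94.4 CPM, 2.58 times, and 1.90 times at the WT mix. BMPR2 was 259 and 387 CPM, and 1.16 times WT at the WT mix. In the other direction TGFB3 was 0.462 times WT (0.568 at the WT mix), TGFB2 0.615 times (0.685) and SMAD3 0.649 times (0.685).

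By class, the called genes stood beside the share of all measured genes called in the same direction. In cardiomyocytes TGFB3, BMP6 and ENG were higher and TGFB2, TGFBR3 and SMAD3 lower, against 25.6% of 18879 genes higher and 8.81% lower. In fibroblasts 2 of 10 were higher and 0 lower (16.8% and 9.07% of all genes), and in vascular endothelium 3 were higher and 1 lower (11.6% and 7.87%). Macrophages had 3 of 9 higher and 2 lower (16.5% and 11%), lymphatic endothelium 1 of 10 higher and 3 lower (10.7% and 8.13%), and T or NK lymphocytes 2 higher and 4 lower (17.5% and 13.6%). Pericytes had 0 higher and 2 lower (12.4% and 20.7%), smooth muscle 2 higher and 1 lower (16.4% and 7.84%), and Schwann or neural nuclei 2 of 9 higher and 1 lower (11.2% and 9.46%). Over all pairs, 20.5% of the measured pairs of the 10 genes were higher and 19.3% lower, and 16.2% and 10.5% of those of all genes.

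**Figure D5:**
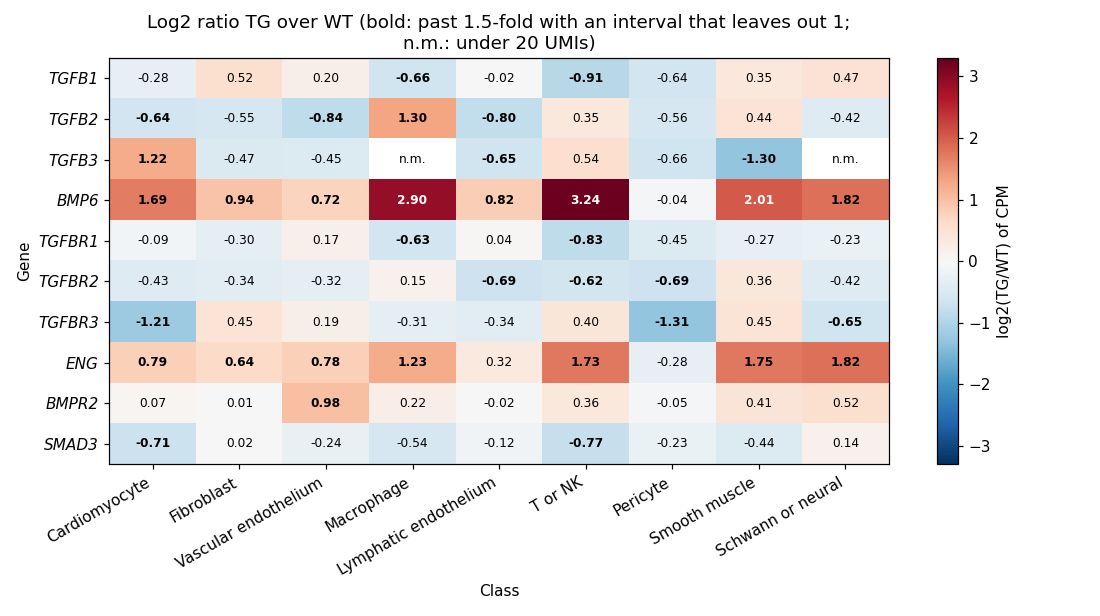
Log2 ratio of TG over WT for each gene (y axis) and class (x axis), red for higher and blue for lower in TG, with called pairs in bold. BMP6 and ENG read red in most classes, with 3.24 for BMP6 in T or NK lymphocytes, and the lowest values are -1.31 for TGFBR3 in pericytes and -1.30 for TGFB3 in smooth muscle.

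A list of 80 other genes of the pathway gave 511 measured pairs, of which 140 were higher in TG (27.4%) and 69 lower (13.5%), beside 16.2% and 10.5% over all genes. The higher count was 84 with at least 100 UMIs, 73 with nuclei thinned to 1000 UMIs and 91 with the profile subtracted. The lower class markers given above for pericytes, lymphocytes and Schwann or neural nuclei apply to the pathway values of these classes too. So do the higher cardiomyocyte, fibroblast and endothelial markers given above for other classes, whose part in the pathway values was not tested.

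Genes that BMP often induces, such as the inhibitors of differentiation ID1 to ID4, were higher in 7 of 7 measured cases in cardiomyocytes (25.6% of all genes), 6 of 7 in fibroblasts (16.8%), 5 of 5 in macrophages (16.5%) and 5 of 6 in T or NK lymphocytes (17.5%). The cardiomyocyte count includes low levels. Of the 26 pathway genes higher in cardiomyocytes, only 8 reached 10 CPM in a library, against 14 of 18 in fibroblasts. The 7 had a median log2 ratio of 2.45, yet none was among the 4 picked for naming at 10 CPM or more. Smooth muscle had 3 of 5 higher and 1 lower (16.4% and 7.84% of all genes), and Schwann or neural nuclei 2 of 3 higher (11.2%). In vascular endothelium, where BMP6 and BMPR2 were highest, 2 of 7 were higher (11.6% of all genes). Lymphatic endothelium, where BMP6 was also higher, had 0 of 3 higher and 1 lower (10.7% and 8.13% of all genes). Pericytes had 0 of 4 higher and 2 lower (12.4% and 20.7%). ID1 was 8.27 CPM in WT and 7.26 times that in TG in fibroblasts, 4.61 and 32.2 CPM in lymphocytes and 10.5 and 54.9 in smooth muscle, where ID3 was 23.9 and 121. In vascular endothelium ID4 (3.62 and 12.0 CPM) and HEY1 (19.7 and 46.8) passed, and ID1 (199 and 293) did not.

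Genes that TGF-beta often induces were higher in 6 of 8 cases in cardiomyocytes (25.6% of all genes) and 5 of 8 in fibroblasts (16.8%). Macrophages had 4 of 7 higher (16.5%), lymphocytes 4 of 7 (17.5%) and Schwann or neural nuclei 2 of 4 (11.2%). Fibroblasts and lymphocytes had 1 lower each (9.07% and 13.6% of all genes). Vascular endothelium had 3 of 8 higher and 2 lower (11.6% and 7.87% of all genes), and lymphatic endothelium 1 of 5 and 1 (10.7% and 8.13%). Pericytes had 0 of 5 and 2 (12.4% and 20.7%), and smooth muscle 1 of 8 and 5 (16.4% and 7.84%). In fibroblasts TNC, the matrix protein tenascin C, was 2.33 CPM in WT and 37.0 in TG (15.9 times, 10.8 to 24.3), and CCN2, connective tissue growth factor, 26.3 and 183 (6.95 times, 6.14 to 7.90). POSTN, the matricellular protein periostin, was the 1 lower there (170 and 16.3 CPM), and it was lower in lymphocytes too (37.6 and 16.1). CCN2 was 22.4 and 46.1 CPM in cardiomyocytes. FN1, fibronectin, was lower in vascular endothelium (161 and 35.6 CPM) and higher in Schwann or neural nuclei (7.38 and 48.4). ELN, elastin, was lower in lymphatic endothelium (84.7 and 46.7 CPM). In smooth muscle TNC was lower (535 and 63.3 CPM), and it was among the leading genes of cluster 32, which held 10 TG nuclei.

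Genes of proteins that bind or free latent TGF-beta were higher in 6 of 10 cases in cardiomyocytes (25.6% of all genes) and 7 of 9 in macrophages (16.5%). Lymphocytes had 7 of 11 higher (17.5%), lymphatic endothelium 5 of 11 (10.7%) and Schwann or neural nuclei 2 of 9 (11.2%), with 0 lower in these 5 classes. Pericytes had 4 of 9 higher and 3 lower (12.4% and 20.7% of all genes), and fibroblasts 1 of 10 and 4 (16.8% and 9.07%). Vascular endothelium had 1 of 11 and 3 (11.6% and 7.87%), and smooth muscle 0 of 10 and 4 (16.4% and 7.84%). In fibroblasts LTBP1, which tethers latent TGF-beta to the matrix, was 1720 CPM in WT and 767 in TG, and FBN1, fibrillin 1, 2754 and 1434. FBN1 was lower in pericytes as well (305 and 120 CPM) and higher in macrophages (9.13 and 48.6). Fibroblast markers in macrophages summed to 679 and 1040 CPM, and their part in macrophage FBN1 was not tested. In vascular endothelium LTBP2 was 96.3 CPM in WT and 4.30 in TG. THBS1, thrombospondin 1, an activator of latent TGF-beta, was lower in vascular endothelium (148 and 39.2 CPM) and smooth muscle (1511 and 352) and higher in Schwann or neural nuclei (17 and 53 UMIs, 4.55 times in CPM). Of the integrin chains, ITGAV was 196 and 325 CPM in cardiomyocytes and ITGB8 13.2 and 79.1 in pericytes.

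Among other ligands, MSTN, myostatin, was 6.39 and 18.5 CPM in cardiomyocytes and had 1 UMI in WT and 32 in TG pericytes. Cardiomyocyte markers in pericytes summed to 19623 and 33624 CPM, and their part in pericyte MSTN was not tested. INHBA, the activin A subunit, was 21.9 and 1.20 CPM in vascular endothelium. The extracellular BMP regulator BMPER was lower in cardiomyocytes (20.7 and 5.12 CPM) and lymphatic endothelium (38.6 and 17.7), the BMP antagonist CHRDL1 in fibroblasts (95.6 and 41.8) and the activin antagonist FSTL3 in Schwann or neural nuclei (67.6 and 25.1). RGMA, a BMP co-receptor, was lower in cardiomyocytes (40.7 and 11.5 CPM) and pericytes (123 and 53 UMIs, 0.355 times in CPM), and the activin receptor ACVR2B had 22 UMIs in WT and 3 in TG Schwann or neural nuclei. None of the 11 other receptors measured in vascular endothelium was called, beside 11.6% of all genes higher and 7.87% lower. SMAD6, an inhibitory SMAD that BMP signals induce, was 260 and 556 CPM in vascular endothelium (2.14 times, 2.01 to 2.27) and 3.03 and 17.0 in lymphatic endothelium. SMAD2 was lower in lymphocytes (423 and 190 CPM), and in macrophages SMAD5 (112 and 74.2) and the SMAD modulator PMEPA1 (298 and 54 UMIs, 0.524 times in CPM) were lower.

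Across the 18 points of class and library, the 10 genes resembled one another to different degrees, given here as description only, since points of 1 library share its depth and free RNA. The highest Pearson correlations of log2(CPM + 1) were 0.84 for TGFB2 with TGFBR3, 0.82 for BMP6 with ENG, 0.79 for TGFB2 with TGFBR2 and 0.76 for ENG with BMPR2. Among 11083 genes, those most like BMPR2 were SSUH2, SOX17 and TCIM (0.92 each), and those most like ENG were ACER2 (0.95), PLAT (0.94) and HMCN1 (0.94). NPY1R (0.90) was most like TGFB3, PTBP3 (0.97) most like TGFB1, and TRAM2 (0.93) most like TGFBR3. SMAD3 had no gene above 0.78.

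Some of the 10 genes share bases with another gene in the RefSeq annotation of Sscrofa11.1. TGFB3 overlaps IFT43, SMAD3 overlaps AAGAB, ENG overlaps FPGS, TGFB1 overlaps LOC110261354, and TGFBR3 holds LOC110260399 and LOC110260383. Whether counting used strand is not given in the sources used here, so UMIs from the shared bases may belong to either gene.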

How the data were processed

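The deposited matrices hold raw counts of UMIs per gene and nucleus, 1 per library. Per the submitters' processing notes the tools were Seurat 3.1.1 and Cell Ranger 3.1.0, with Sscrofa11.1 as the build, while the file headers name Cell Ranger 5.0.0. Nuclei with at least 500 genes and at most 5% mitochondrial counts were kept. They were clustered together with scanpy 1.11.5 (Python 3.11.15; 2000 variable genes without the 10 genes and the 80 pathway genes, 30 components, 15 neighbours, leidenalg 0.10.2, resolution 2, seed 1, no batch correction). Resolution 2 was adopted after the clusters were seen, because at resolution 1 pericyte and smooth muscle nuclei of TG shared 1 cluster. A class name needed at least 60% of its markers, and at least 3, above the baseline of other clusters. No doublet caller was used, and mixed clusters were set aside. Gene totals per class were scaled per 1000000 nuclear-encoded UMIs, and ratios carry conditional binomial intervals (scipy 1.17.1). Log2 ratios add 0.5 to each count. The calling rule was tested on simulated data, with no result given here. That does not cover differences between animals or libraries.

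All 10 genes are named in every class. Pathway genes named with values are the called ones that reach 10 CPM, up to 4 in each direction in cardiomyocytes, fibroblasts and vascular endothelium and up to 2 elsewhere, ordered by the interval bound nearest to no difference. ID1 in vascular endothelium was added after its values were seen, and 1 gene that the rule picks is counted but not reported here. The 10 genes and all lists were chosen with earlier results of these data known. Alternatives changed filters, clustering, scaling (TMM, edgeR 4.0.16), depth, weighting and free RNA. RefSeq positions matched all 10 genes by symbol.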

Additional observations from a re-analysis of the deposited data

Results flagged for a closer look

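TGFB2 and TGFB3 were called in opposite directions in different classes. The log2 ratio of TG over WT for TGFB2 was 1.30 in macrophages, and -0.64 in cardiomyocytes, -0.84 in vascular endothelium and -0.80 in lymphatic endothelium. For TGFB3 it was 1.22 in cardiomyocytes, -0.65 in lymphatic endothelium and -1.30 in smooth muscle. BMP6 was called in opposite directions within vascular endothelium, at 2.33 times WT in cluster 3, 1.96 times in cluster 18, 0.568 times in cluster 10 and 0.181 times in cluster 22. With 1 library per genotype none of these differences between classes or clusters was tested.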

How the results depend on the processing

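Under 13 planned and 2 added alternatives, the counts of higher and lower pairs of the 10 genes stayed within 1.5 times of 18 and 17, with ranges of 13 to 22 and 12 to 21. All 10 genes kept a shared leading class except SMAD3 under TMM scaling and in clusters with at least 40 nuclei in both libraries. Pathway pairs higher in TG numbered 140, and 84 with at least 100 UMIs, 73 with nuclei thinned to 1000 UMIs and 91 with the library-wide profile subtracted. How many pathway pairs were measured in each of these settings was not counted, and the cause of the lower counts was not tested. Of the 35 called pairs, 11 kept their call in every setting run: TGFB2 in both endothelia, BMP6 in fibroblasts and vascular endothelium, TGFBR2 in lymphatic endothelium, TGFBR3 in cardiomyocytes and Schwann or neural nuclei, ENG in cardiomyocytes, BMPR2 in vascular endothelium, and SMAD3 in cardiomyocytes and lymphocytes. With the profile subtracted 22 of 35 kept theirs, but cardiomyocytes had nothing subtracted and their calls could not change there. Log2 ratios that changed sign were TGFB1 in macrophages (0.0013, libraries clustered separately), TGFBR1 in macrophages (0.0387, profile subtracted), ENG in lymphocytes (-0.24) and smooth muscle (-0.23, both profile subtracted), and, without cluster 13, TGFB1 (0.13), TGFBR2 (0.15) and ENG (-0.31) in lymphocytes. The 2 cluster removals and the resolution 1 and shared-cluster settings were chosen after seeing the data. TMM shifted log2 ratios by -0.14 to -0.22 in cardiomyocytes, fibroblasts, lymphatic endothelium and smooth muscle. No paired analysis was possible because each genotype has 1 library.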

Other observations

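Classes too small to compare held some of the highest levels. Dendritic nuclei (128 in WT, 28 in TG) had 232 and 194 CPM of TGFB1 and 342 and 276 of TGFBR1, above the leading compared class for each gene in both libraries. Mast nuclei (56 and 26) had 0 and 20 UMIs of BMP6 and 2 and 34 of ENG.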
